A study of Mus musculus with 9 samples.

Results

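Arginine metabolism, nitric oxide synthesis and itaconate synthesis were followed through 8 genes in cultured mouse macrophages: Nos2, Gch1, Slc7a2, Ass1, Asl, Arg2, Odc1 and Acod1. The genes were picked by name, 1 row of the count table for each symbol, and all 8 were found among the 46095 symbols listed and passed the filter that left 14026 genes. The cells were bone marrow-derived macrophages, that is, marrow precursors grown into macrophages in a dish, from wild type Balb/c mice 6 weeks old. There were 3 groups of 3 libraries: LPS plus BHB, LPS, and control. The labels give no dose, no time and no long form of either name. LPS is the usual short form of lipopolysaccharide, a bacterial cell wall component that macrophages sense through Toll-like receptors, and BHB that of the ketone body beta-hydroxybutyrate. BHB was given only together with LPS, and nothing in the labels ties the replicates to separate mice or cultures, so the p-values measure the spread between these libraries, which may be technical.

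In macrophages arginine stands at a branch point. It enters through cationic amino acid carriers, and inducible nitric oxide synthase turns it into nitric oxide and citrulline with tetrahydrobiopterin as a cofactor, while arginase turns it into urea and ornithine, the precursor of polyamines. Citrulline can be rebuilt into arginine by argininosuccinate synthase and argininosuccinate lyase. Itaconate is made in the mitochondria of activated macrophages from cis-aconitate, an intermediate of the tricarboxylic acid cycle, and inhibits succinate dehydrogenase.

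The windows of 250 bases before the RefSeq start of Acod1, Gch1, Ass1 and Odc1 are shown because these genes rose with LPS, with LPS plus BHB or with both. They come from the RefSeq promoter table (GRCm38.p6), which matched 4 of the 8 genes, and are written in the direction of the gene. Capitals mark letters that match a searched motif on either strand. The searched motifs described here were the TATA box TATAAA, the E-box CACGTG bound by MYC and MAX, the core ACGTG of hypoxia-inducible factor sites, the kappa B consensus, the paired site of interferon regulatory factors and TTGNNNAA of C/EBP factors. Acod1 lies at chr14:103046762-103047011 (plus strand), Gch1 at chr14:47189414-47189663 (minus), Ass1 at chr2:31470020-31470269 (plus) and Odc1 at chr12:17544623-17544872 (plus).
Acod1: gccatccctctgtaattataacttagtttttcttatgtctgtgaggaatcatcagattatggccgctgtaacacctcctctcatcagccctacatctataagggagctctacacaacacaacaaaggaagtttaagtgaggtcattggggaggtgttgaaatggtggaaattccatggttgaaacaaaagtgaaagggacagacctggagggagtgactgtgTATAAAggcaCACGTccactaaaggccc
Gch1: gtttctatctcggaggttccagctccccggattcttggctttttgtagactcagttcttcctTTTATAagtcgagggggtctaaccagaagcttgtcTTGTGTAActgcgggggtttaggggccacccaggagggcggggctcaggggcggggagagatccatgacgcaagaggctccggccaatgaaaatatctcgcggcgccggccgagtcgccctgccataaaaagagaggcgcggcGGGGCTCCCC
Ass1: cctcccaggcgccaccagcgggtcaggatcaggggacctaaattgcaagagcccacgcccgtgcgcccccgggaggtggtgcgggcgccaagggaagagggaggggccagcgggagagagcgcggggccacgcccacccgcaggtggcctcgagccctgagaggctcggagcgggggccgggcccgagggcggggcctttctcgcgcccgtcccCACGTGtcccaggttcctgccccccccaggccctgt
Odc1: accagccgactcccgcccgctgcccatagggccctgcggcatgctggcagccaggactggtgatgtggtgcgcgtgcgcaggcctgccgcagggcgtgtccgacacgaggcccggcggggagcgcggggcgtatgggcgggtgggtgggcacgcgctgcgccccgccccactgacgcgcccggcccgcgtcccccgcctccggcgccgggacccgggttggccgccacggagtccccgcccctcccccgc
The Acod1 window held TATAAA at 28 to 23 bases before the start and the hypoxia core, on the other strand, at 18 to 14 bases before it. The Ass1 window held the E-box CACGTG at 36 to 31 bases before the start, and the hypoxia core lies inside that E-box on both strands. The Gch1 window held a kappa B match on both strands, GGGGCTCCCC, in the last 10 bases before the start, a C/EBP match at 153 to 146 and a TATA match on the other strand at 188 to 183. The Odc1 window held none of these motifs. Of 32851 windows of this length in the table, 12.4% held TATAAA, 6.02% the E-box, 16.6% the hypoxia core, 7.25% the kappa B consensus, 33.3% the C/EBP letters and 2.98% the paired interferon regulatory factor site. A match describes the letters only and is no evidence of binding.

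Total counts were 29633411 to 32798920 per library. Levels are given as CPM, counts scaled to a common library total with trimmed-mean (TMM) factors, and changes as log2 fold changes with standard errors (SE) from edgeR's quasi-likelihood test, with p-values adjusted over all 14026 genes by the Benjamini-Hochberg method and called at 0.05. The 12 listed macrophage markers, all tested, had a summed level of 15187 to 15739 CPM with LPS plus BHB, 9272 to 10607 CPM with LPS and 19786 to 23211 CPM in control. Of them 8 were called higher and 2 lower with LPS plus BHB than with LPS, where 25.4% and 23.9% of all tested genes were. In either treated group 2 were higher and 10 lower than in control. Of all tested genes 38.8% were higher and 41.9% lower with LPS than in control, and 37.7% and 40.4% with LPS plus BHB. The lists of other cell types were far lower. Their summed levels with LPS plus BHB, with LPS and in control were 5.18 to 7.94, 2.06 to 3.66 and 5.51 to 6.50 CPM for neutrophils and their precursors, with Ly6g and Mpo at 0 with LPS plus BHB and Elane, Retnlg and Cxcr2 at 0 with LPS. For dendritic cells they were 16.5 to 17.5, 20.3 to 24.7 and 6.64 to 8.28 CPM, with Clec9a at 0 with LPS plus BHB. Zbtb46 made up most of this in the treated groups, with means of 13.6, 20.3 and 0.869 CPM in the same order. Of the 4 tested, Zbtb46 and Ccr7 were higher and Cd209a and Batf3 lower in either treated group than in control. For lymphocytes the summed levels were 0.0347 to 0.318, 0.429 to 0.804 and 1.90 to 3.00 CPM. Stromal markers summed to 131 to 160 CPM with LPS plus BHB, 99.3 to 109 CPM with LPS and 6.90 to 14.9 CPM in control, nearly all of it Pdgfrb, while the collagen genes Col1a1 and Col1a2 stayed below 3 CPM on average in each group. Mast cell and erythroid markers summed to at most 0.0845 CPM in any library. The part of other cell types in the values below was not tested, and in bulk RNA fewer cells of a type and less RNA per cell cannot be told apart. Control replicates 2 and 3 held low counts of Nos2 and Acod1, which control replicate 1 nearly lacked, so the 8 genes are given against control with all controls and with some left out.

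Of the 8 genes, 6 changed between LPS plus BHB and LPS, 4 upward and 2 downward, where 49.3% of all tested genes were called, 25.4% upward and 23.9% downward. Nos2 and Gch1, the synthase and its cofactor enzyme, were lower with BHB. Acod1, Slc7a2, Ass1 and Odc1 were higher, and Asl and Arg2 did not pass. The median log2 fold change of the 8 was 0.32, against 0.01 for all genes. Between LPS and control all 8 were called, 7 higher and 1 lower (80.7% of all genes were called, 38.8% higher and 41.9% lower), with a median of 2.45 against -0.06 for all genes. Between LPS plus BHB and control all 8 were again called, 7 higher and 1 lower (78% of all genes, 37.7% higher and 40.4% lower), with a median of 2.81 against -0.06. Between the 2 treated groups, 6 of the 8 genes had libraries that did not overlap, as had 56.7% of all genes. Against control all 8 did so for LPS (82.7% of all genes) and for LPS plus BHB (80.2% of all genes). With scaling by library totals 6 of the 8 genes were called for LPS against control, 5 higher and 1 lower, with Arg2 at -0.05, and 7 for LPS plus BHB against control, 6 higher and 1 lower. Both comparisons with control share the same 3 control libraries. Scaling by library totals alone lowered the fold changes of all genes against control by a median of 0.27 for LPS and 0.33 for LPS plus BHB on the log2 scale. It gave 4306 genes higher and 7142 lower for LPS, in place of 5438 and 5878, and 3907 higher and 7349 lower for LPS plus BHB, in place of 5283 and 5663.

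**Figure D1:**
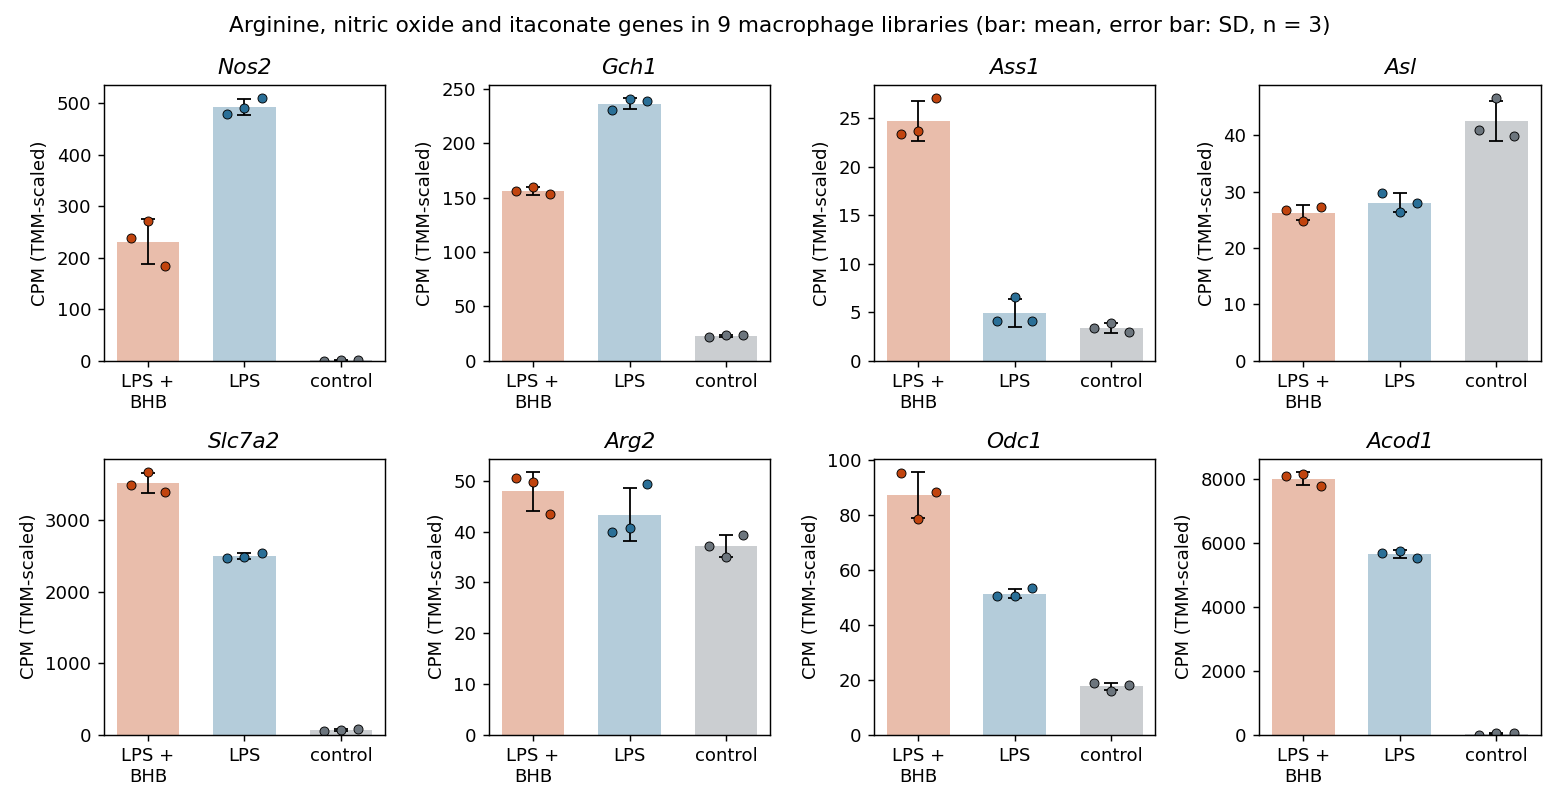
TMM-scaled CPM of the 8 genes (vertical axes, linear from 0) in LPS plus BHB, LPS and control libraries; points are libraries, bars the mean and error bars the SD of 3 libraries. Nos2 and Gch1 are highest with LPS alone (means of 493 and 236 CPM), Acod1, Slc7a2, Ass1 and Odc1 are highest with LPS plus BHB, and Asl is highest in control.

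Nos2 encodes inducible nitric oxide synthase (chromosome 11, 78920787 to 78960254, plus strand, GRCm38). It was at 238, 271 and 184 CPM in the LPS plus BHB libraries, at 479, 490.4 and 510 CPM in the LPS libraries and at 0, 1.79 and 1.52 CPM in the control libraries. Every LPS plus BHB library therefore lay below every LPS library and far above every control library. Nos2 was lower with LPS plus BHB than with LPS, with a log2 fold change of -1.10 (SE 0.15, adjusted p = 0.00247), that is, at 0.468 of the LPS level. The LPS plus BHB libraries were the more scattered, with a coefficient of variation of 19.0% against 3.12% with LPS. Replicate 3 was the lowest of them, and without it the log2 fold change was -0.96 (SE 0.05).

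Against control, Nos2 rose by 8.78 with LPS (SE 0.40, adjusted p = 3.17e-05) and by 7.69 with LPS plus BHB (SE 0.54, adjusted p = 0.000191). The size of both depends on the control library used. Control replicate 1 had 0 counts of Nos2, and against a floor of 3 counts in that library the level was at least 5838-fold higher with LPS and at least 2732-fold higher with LPS plus BHB. Control replicates 2 and 3 had 67 and 55 counts, and without replicate 1 the log2 fold changes were 8.21 (SE 0.08) with LPS and 7.12 (SE 0.25) with LPS plus BHB. The Nos2 level of control replicates 2 and 3 above that of replicate 1 came to 0.364% and 0.308% of the LPS mean. No 31-base word of the Nos2 transcripts occurs in transcripts of other genes. The neuronal and endothelial synthase genes Nos1 and Nos3 had 0 to 12 counts summed over the 3 libraries of any group and were not tested.

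Gch1 encodes GTP cyclohydrolase, which carries out the committed step of tetrahydrobiopterin synthesis (chromosome 14, 47153895 to 47189413, minus strand). Its levels were 156, 159.9 and 153 CPM with LPS plus BHB, 230.3, 240.05 and 238 CPM with LPS, and 21.8, 23.9 and 23.4 CPM in control. The 3 groups stood apart with little scatter. Gch1 was lower with LPS plus BHB than with LPS, at -0.60 (SE 0.05, adjusted p = 2.98e-10). It was higher than in control by 3.36 with LPS (SE 0.05, adjusted p = 4.67e-23) and by 2.76 with LPS plus BHB (SE 0.06, adjusted p = 1.85e-16). Without control replicates 2 and 3 these were 3.44 and 2.84.

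Slc7a2 encodes the cationic amino acid carrier CAT2, which brings arginine into the cell (chromosome 8, 40862396 to 40922308, plus strand). It stood at 3489.9, 3677 and 3395 CPM with LPS plus BHB, at 2468, 2491 and 2539 CPM with LPS, and at 48.3, 68.6 and 81.4 CPM in control. The 3 groups were again apart. Slc7a2 was higher with LPS plus BHB than with LPS by 0.49 (SE 0.04, adjusted p = 2.02e-09), a fold of 1.41, while Nos2 went the other way. Against control it rose by 5.24 with LPS (SE 0.24, adjusted p = 3.24e-05) and by 5.73 with LPS plus BHB (SE 0.24, adjusted p = 5.83e-06). Control replicate 1 was the lowest control library. Against replicate 1 alone the log2 fold changes were 5.69 and 6.19, and without it they were 5.06 and 5.55. The Slc7a2 gene shares 635 exon bases with a noncoding gene on the other strand, Gm26584. With no strand setting stated, reads from these bases cannot be assigned to either strand.

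Ass1 encodes argininosuccinate synthase, which joins citrulline and aspartate (chromosome 2, 31470207 to 31520672, plus strand). It had 688, 683 and 767 counts with LPS plus BHB, 125, 189 and 116 counts with LPS, and 120, 145 and 106 counts in control. In CPM these were 23.3, 23.7 and 27.1 with LPS plus BHB, 4.12, 6.61 and 4.10 with LPS, and 3.38, 3.88 and 2.92 in control. The LPS plus BHB libraries stood apart from the other 6, which lay close together. Ass1 was higher with LPS plus BHB than with LPS by 2.32 (SE 0.15, adjusted p = 9.05e-10), a fold of 4.999, the largest change of the 8 genes between these groups. It was higher than in control by 2.86 with LPS plus BHB (SE 0.12, adjusted p = 1.30e-12), or by 2.87 without control replicates 2 and 3. With LPS alone the change was 0.54 (SE 0.20, adjusted p = 0.0187). Ass1 was no longer called for LPS against control when control replicate 3, LPS replicate 2 or control replicates 2 and 3 were left out (adjusted p = 0.0762, 0.216 and 0.116), or with scaling by library totals (adjusted p = 0.224).

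The Ass1 value rests on reads that a pseudogene can share. Of the 31-base words of its transcripts, 43.1% occur in Gm5424, a processed pseudogene. Gm5424 had 254 to 302 counts with LPS plus BHB, 30 to 69 with LPS and 38 to 60 in control. It moved with Ass1, at 2.43 (SE 0.20, adjusted p = 1.26e-09) for LPS plus BHB against LPS. The 2 rows summed to 34.2 ± 1.65 CPM with LPS plus BHB, 6.69 ± 1.69 CPM with LPS and 4.76 ± 0.165 CPM in control (SD, n = 3 each), a ratio of 5.11 between LPS plus BHB and LPS. The sources used here do not say how reads were divided between the gene and its copy, which leaves the split uncertain.

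Asl encodes argininosuccinate lyase, the next enzyme, which releases arginine and fumarate (chromosome 5, 130011258 to 130029247, minus strand). It was at 26.8, 24.8 and 27.2 CPM with LPS plus BHB, 29.8, 26.3 and 28.0 CPM with LPS, and 41.0, 46.6 and 39.9 CPM in control. Both treated groups overlapped and lay below control. Asl was lower than in control, unlike the other 7 genes (of which Arg2 turned to -0.05 for LPS with scaling by library totals), at -0.60 with LPS (SE 0.07, adjusted p = 8.64e-08) and at -0.69 with LPS plus BHB (SE 0.08, adjusted p = 3.17e-07). Without control replicates 2 and 3 these were -0.55 and -0.64. The difference between LPS plus BHB and LPS did not pass, at -0.09 with a 95% interval of -0.25 to 0.07 (adjusted p = 0.343). Ass1 and Asl, which act in sequence, thus had different patterns over the 3 groups.

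Arg2 encodes the mitochondrial arginase, which makes ornithine and urea (chromosome 12, 79130777 to 79156301, plus strand). It was at 50.6, 49.7 and 43.5 CPM with LPS plus BHB, 40.0, 40.7 and 49.4 CPM with LPS, and 37.2, 34.9 and 39.4 CPM in control. The levels were close together in all 9 libraries. LPS plus BHB and LPS overlapped, with a log2 fold change of 0.15 and a 95% interval of -0.02 to 0.31 (adjusted p = 0.148). This difference passed without LPS plus BHB replicate 3 (0.21, adjusted p = 0.0278) and without LPS replicate 3 (0.25, adjusted p = 0.0135). Against control Arg2 was higher by 0.22 with LPS (SE 0.08, adjusted p = 0.0135), but at -0.05 with scaling by library totals. Arg2 did not pass there when LPS replicate 3, control replicate 2 or control replicates 2 and 3 were left out (adjusted p = 0.105, 0.0684 and 0.0852). With LPS plus BHB it was higher than control by 0.37 (SE 0.07, adjusted p = 0.000220), or 0.04 and not called (adjusted p = 0.610) with scaling by library totals. Without control replicates 2 and 3 that value was 0.37 (adjusted p = 0.0102). Exons of Vti1b, on the other strand, cover 285 bases of the Arg2 exons. Of the 31-base words of Arg2, 23.6% occur in Vti1b or the antisense gene Gm48780. Vti1b had 2104 to 2493 counts per library, more than Arg2 in each. With no strand setting stated, reads from the shared bases cannot be assigned to either gene. Their part in the Arg2 level and its ratio to Nos2 was not tested. The cytosolic arginase gene Arg1 had 6, 7 and 10 counts summed over the LPS plus BHB, LPS and control libraries, and no change can be read at that depth.

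Odc1 encodes ornithine decarboxylase, the first enzyme of polyamine synthesis (chromosome 12, 17544794 to 17551505, plus strand). It was at 95.1, 78.3 and 88.1 CPM with LPS plus BHB, 50.3, 50.3 and 53.2 CPM with LPS, and 18.7, 16.0 and 17.9 CPM in control. The order was the same in all libraries, LPS plus BHB above LPS and LPS above control. Odc1 was higher with LPS plus BHB than with LPS by 0.77 (SE 0.07, adjusted p = 1.61e-09). It was higher than in control by 1.55 with LPS (SE 0.07, adjusted p = 6.95e-15) and by 2.31 with LPS plus BHB (SE 0.08, adjusted p = 2.56e-13), or by 1.45 and 2.22 without control replicates 2 and 3. Of its 31-base words 31.3% occur in transcripts of 21 other genes, among them the processed pseudogene Gm7993, so its reads too may be split. Gm7993 had 608 to 821 counts with LPS plus BHB, 415 to 428 with LPS and 184 to 229 in control. Odc1 and Gm7993 summed to 113 ± 12.02 CPM with LPS plus BHB, 65.8 ± 1.87 CPM with LPS and 23.3 ± 0.951 CPM in control (SD, n = 3 each), a ratio of 1.71 between LPS plus BHB and LPS.

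Acod1 encodes cis-aconitate decarboxylase, the enzyme that makes itaconate (chromosome 14, 103046977 to 103056573, plus strand). It reached 8098, 8151 and 7758 CPM with LPS plus BHB, 5693, 5747 and 5519 CPM with LPS, and 0.676, 46.6 and 49.9 CPM in control. Acod1 alone took 0.714% to 0.744% of all counts in the LPS plus BHB libraries and 0.527% to 0.545% in the LPS libraries. It was higher with LPS plus BHB than with LPS by 0.50 (SE 0.04, adjusted p = 7.37e-10), a fold of 1.42, and the groups did not overlap. In a fit of all 9 libraries, where the control libraries enter the spread, that difference was not called (adjusted p = 0.675). No 31-base word of Acod1 occurs in transcripts of other genes.

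Against control Acod1 rose by 7.45 with LPS (SE 1.42, adjusted p = 0.00766) and by 7.95 with LPS plus BHB (SE 1.55, adjusted p = 0.00868). With the replicate number as a block neither passed (adjusted p = 0.0598 and 0.0629). The wide errors come with a gap among the controls, of 24 counts in replicate 1 against 1739 and 1808 in replicates 2 and 3. Against replicate 1 alone the log2 fold changes were 13.02 (SE 0.10) with LPS and 13.52 (SE 0.16) with LPS plus BHB, and without replicate 1 they were 6.87 (SE 0.06) and 7.37 (SE 0.08). The levels of control replicates 2 and 3 above that of replicate 1 were 0.811% and 0.870% of the LPS mean for Acod1, and 0.811% and 1.33% for Slc7a2. For Gch1 they were 0.870% and 0.654%, and for Odc1 -5.25% and -1.55%, below replicate 1. The values of Nos2, 0.364% and 0.308%, were below those of Acod1, Slc7a2 and Gch1. The genes that changed least with LPS had values of both signs. These were 10.2% and -9.19% for Ass1, 19.99% and -3.85% for Asl, and -5.29% and 5.01% for Arg2. In these genes and in Odc1 the control level was a sizeable part of the LPS level, or above it. Scatter between replicates can hide a small share there, so whether those genes held such a share cannot be told from these values. The cause of the gap between the control libraries was not tested.

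**Figure D2:**
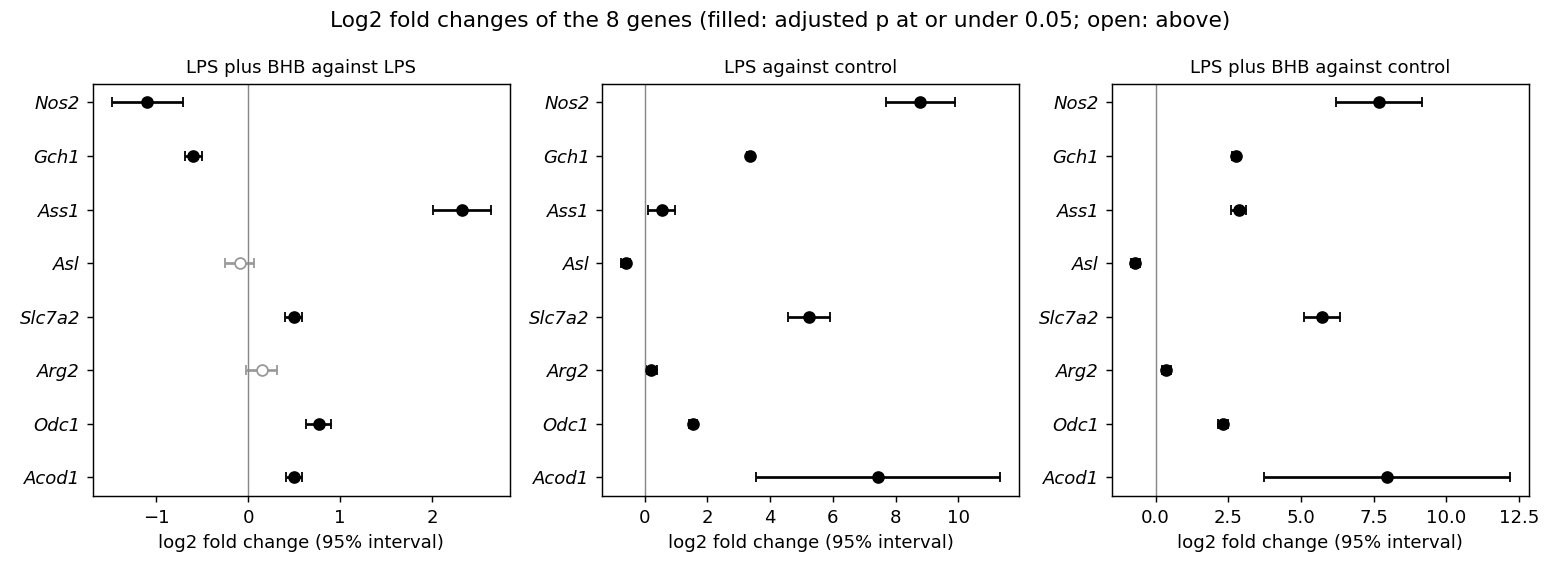
Log2 fold changes (horizontal axes) with 95% intervals from edgeR's quasi-likelihood test for the 8 genes in the 3 comparisons; filled points passed an adjusted p of 0.05 and open points did not. Between LPS plus BHB and LPS the values run from -1.10 for Nos2 to 2.32 for Ass1, and against control the intervals of Acod1 are the widest.

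Levels of different genes were compared per length, as CPM per kilobase of exon (RPKM). With LPS plus BHB the order of mean RPKM was Acod1 at 3051, Slc7a2 at 385, Nos2 at 52.3, Arg2 at 33.6, Odc1 at 25.6, Gch1 at 25.0, Ass1 at 10.2 and Asl at 5.44. Odc1 and Gch1 overlapped in that order, and all other neighbours did not. With LPS it was Acod1 at 2155, Slc7a2 at 274, Nos2 at 112, Gch1 at 37.8, Arg2 at 30.4, Odc1 at 15.1, Asl at 5.80 and Ass1 at 2.05, with no overlap between neighbours. In control Arg2 was the most abundant at 26.0 RPKM, then came Acod1 at 12.3, Asl at 8.80, Slc7a2 at 7.24, Odc1 at 5.16, Gch1 at 3.68, Ass1 at 1.41 and Nos2 at 0.250. There the libraries of Acod1 and Asl overlapped, as did those of Asl and Slc7a2, and those of Slc7a2 and Odc1. Acod1 ran from 0.258 RPKM in control replicate 1 to 19.0 RPKM in replicate 3. Its range thus also took in the control levels of Slc7a2, Odc1, Gch1 and Ass1. The order of the genes depends on the lengths used, here the union of all exons. With the length of the longest transcript, an alternative added after the data were seen, Gch1 at 44.5 and Odc1 at 39.5 RPKM came before Arg2 at 33.6 RPKM with LPS plus BHB, and Nos2 and Gch1 overlapped there. In control Asl at 17.6 RPKM then came before Acod1 at 12.3 RPKM, and these still overlapped. The order with LPS was the same with both lengths. Among 12906 tested genes with an annotated length, Acod1 ranked 6 with LPS plus BHB, 11 with LPS and 3179 in control. The control rank of Acod1 rests on the mean of its uneven control libraries. Slc7a2 ranked 74 with LPS plus BHB, 113 with LPS and 4853 in control. The 8 genes together held 1.08% to 1.13% of all counts with LPS plus BHB, 0.850% to 0.863% with LPS and 0.0197% to 0.0296% in control.

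Nitric oxide synthase and arginase use the same substrate, and the ratio of Nos2 to Arg2 in RPKM was 1.52, 1.76 and 1.37 with LPS plus BHB, 3.88, 3.90 and 3.34 with LPS, and 0, 0.0166 and 0.0125 in control. Nos2 was thus above Arg2 per length in all 6 treated libraries, by less with BHB. The ratio of Nos2 to Ass1 was 5.58, 6.24 and 3.72 with LPS plus BHB, 63.6, 40.6 and 68.0 with LPS, and 0, 0.253 and 0.284 in control. The ratio of Ass1 to Asl was 1.74, 1.91 and 1.99 with LPS plus BHB, 0.277, 0.502 and 0.293 with LPS, and 0.165, 0.167 and 0.147 in control. Ass1 was above Asl per length only in the LPS plus BHB libraries. The ratios are given as a description, and no test was run on them.

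**Figure D3:**
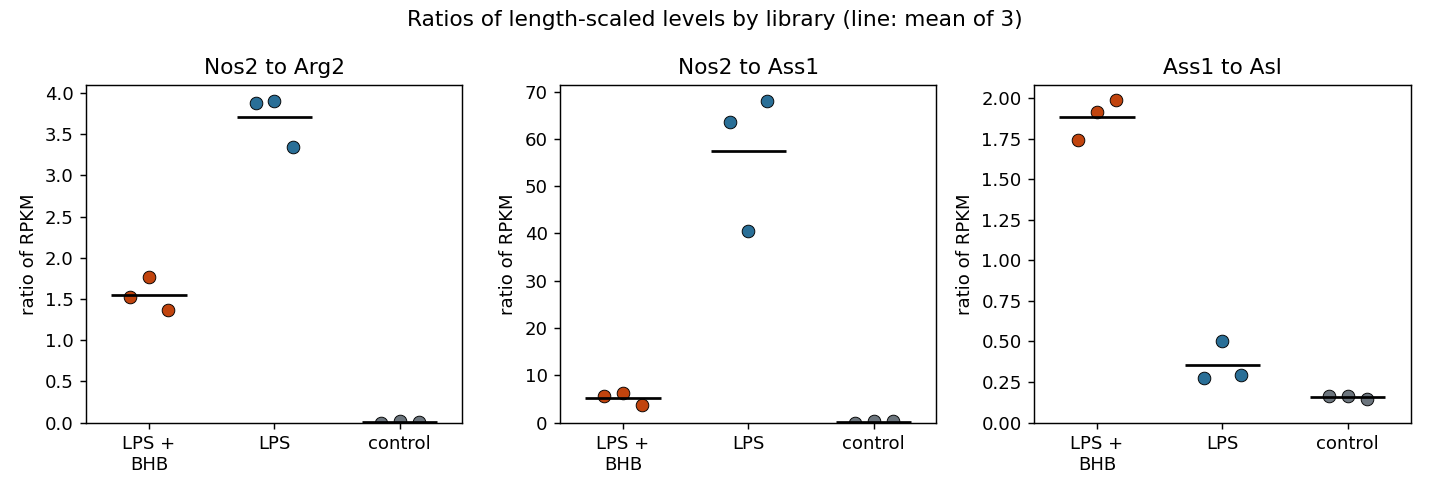
Ratios of RPKM (vertical axes, linear from 0) of Nos2 to Arg2, Nos2 to Ass1 and Ass1 to Asl; points are libraries and lines the mean of 3 libraries. With LPS plus BHB the Nos2 to Arg2 ratio lies between 1.37 and 1.76, below the LPS libraries, and the Ass1 to Asl ratio lies between 1.74 and 1.99, above all other libraries.

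Other genes with the most similar pattern over the 9 libraries were ranked by the root mean square difference of centred log2 CPM, among the 8067 tested genes whose mean reached 10 CPM. For Nos2 the nearest were the chemokine gene Cxcl1 (0.47) and Il12b (0.50), a subunit of interleukin 12. Cxcl1 was at 4461 ± 109 CPM with LPS plus BHB, 4919 ± 18.03 CPM with LPS and 21.5 ± 17.8 CPM in control (SD, n = 3 each). The difference of Cxcl1 between LPS plus BHB and LPS was thus small beside that of Nos2. Il12b was at 602 ± 121 CPM with LPS plus BHB, 1164 ± 28.9 CPM with LPS and 3.95 ± 3.42 CPM in control (SD, n = 3 each). For Acod1 they were the cytokine genes Il1a (0.36) and Tnfsf15 (0.44), and for Slc7a2 Rab11fip1 (0.07) and the chemokine receptor-like gene Ccrl2 (0.12). Gch1 was nearest to Cd274 (0.07), which encodes the checkpoint ligand PD-L1, and to the alanyl-tRNA synthetase gene Aars (0.08). Ass1 was nearest to Bnip3 (0.21), a mitophagy receptor gene, at 143 ± 12.3 CPM with LPS plus BHB, 25.8 ± 1.16 CPM with LPS and 18.7 ± 0.751 CPM in control (SD, n = 3 each), and to the kinase gene Rps6ka5 (0.23). Odc1 was nearest to Tmem57 (0.10) and Snx18 (0.12). Asl was nearest to Sdhd (0.05), a subunit of succinate dehydrogenase, and to Commd4 (0.06). For Arg2, which changed little, they were Ptbp2 and Dlgap4 (0.08 each). Without control replicates 2 and 3, Bnip3, Snx18, Commd4, Ptbp2 and Dlgap4 were no longer among the 2 nearest of their genes.

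Genes around the 8 enzymes were described by lists, with all 3 control libraries. Over the 5 lists 61 genes were called with LPS against control, where 80.7% of all tested genes were called. With LPS plus BHB in place of LPS there were 60, where 78% of all tested genes were called. Between the 2 treated groups 49.3% of all tested genes were called. The counts of each list below are to be read beside these shares. Of 20 genes of arginine transport, the urea cycle and arginine use 11 were tested. Against LPS alone, 2 were higher with LPS plus BHB (among them Gatm) and 4 lower (Slc7a1, Slc3a2, Oat and Aldh18a1), with a median of -0.23 against 0.01 for all genes. Slc7a1 encodes CAT1, another cationic amino acid carrier, and was at 426 ± 42.8 CPM with LPS plus BHB, 686 ± 17.5 CPM with LPS and 14.3 ± 2.19 CPM in control (SD, n = 3 each). It was lower with LPS plus BHB than with LPS, at -0.69 (SE 0.06, adjusted p = 9.14e-09), while Slc7a2 was higher. Gatm, which makes guanidinoacetate for creatine from arginine, was at 58.5 ± 1.31 CPM with LPS plus BHB, 14.99 ± 1.59 CPM with LPS and 118 ± 7.51 CPM in control (SD, n = 3 each), a rise of 1.96 with LPS plus BHB against LPS (SE 0.08, adjusted p = 3.79e-15). Slc3a2, the heavy chain of several amino acid carriers, was at -0.46 (SE 0.05), and Aldh18a1, which starts proline synthesis from glutamate, at -0.36 (SE 0.08). Between LPS and control 6 of the 11 were higher and 5 lower, with a median of 1.08 against -0.06 for all genes. The largest of the 6 was Slc7a1 at 5.58 (SE 0.09). For LPS plus BHB against control the counts were 6 higher and 4 lower. The urea cycle genes Otc and Cps1 had 0 to 4 counts summed over any group and were not tested, nor was Ddah2, listed at 0 in all libraries.

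Of 16 polyamine genes 14 were tested. Against LPS alone, 4 were higher with LPS plus BHB (Smox, Oaz1, Oaz2 and Atp13a2) and 6 lower, among them Azin1 and Srm, with a median of -0.10. Azin1 encodes an antizyme inhibitor, which protects ornithine decarboxylase from breakdown. It was at 132 ± 7.11 CPM with LPS plus BHB, 252 ± 2.94 CPM with LPS and 132 ± 9.33 CPM in control (SD, n = 3 each), a change of -0.93 between LPS plus BHB and LPS (SE 0.05, adjusted p = 4.81e-13). Oaz1, the antizyme that targets ornithine decarboxylase for breakdown, was higher by 0.34 (SE 0.05, adjusted p = 1.29e-05, a gene named after its values were seen). Smox, which oxidises spermine, was higher by 1.11 (SE 0.07, adjusted p = 1.09e-11), and Srm, spermidine synthase, was lower, at -0.61 (SE 0.09, adjusted p = 1.33e-05). The polyamine carrier genes Atp13a3 and Atp13a2 were at -0.61 (SE 0.05) and 0.43 (SE 0.05). For LPS against control 6 were higher and 6 lower, with Srm at 2.55 (SE 0.10) and Atp13a2 at -2.25 (SE 0.04). For LPS plus BHB against control the counts were 5 higher and 7 lower.

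Of 18 listed partners of nitric oxide synthase and genes of tetrahydrobiopterin metabolism 16 were matched by symbol and 13 tested. Between LPS and control 2 were higher (among them Txnrd1) and 10 lower, with a median of -1.30 against -0.06 for all genes. While Gch1 rose, the later synthesis enzymes Pts and Spr were lower, at -1.50 (SE 0.11) and -1.29 (SE 0.08), and so was Qdpr, which regenerates the cofactor, at -0.74 (SE 0.07). The Gchfr gene, whose product inhibits GTP cyclohydrolase, had 14 counts over the LPS libraries and 59 over the control libraries. Pts, Spr and Gchfr were named after their values were seen. Calm2 and Calm3, which encode calmodulin, the partner that inducible nitric oxide synthase holds tightly, were at -1.30 (SE 0.04) and -0.83 (SE 0.04). Against LPS alone, 2 were higher with LPS plus BHB (Pcbd2 and Calm3) and 3 lower (Qdpr, Nosip and Txnrd1), with a median of 0.04. Qdpr was at 24.8 ± 0.842 CPM with LPS plus BHB and 36.4 ± 4.10 CPM with LPS (-0.55, SE 0.08, adjusted p = 6.27e-06), and Txnrd1, thioredoxin reductase, at -0.42 (SE 0.05). Calm3 was at 0.18 (SE 0.06, adjusted p = 0.00850), and not called with scaling by library totals or without LPS replicate 3 (adjusted p = 0.0503 and 0.0589). For LPS plus BHB against control the counts were 2 higher and 11 lower.

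All 18 genes on the source, transport and targets of itaconate were tested. Against LPS alone, 7 were higher with LPS plus BHB and 4 lower, with a median of 0.05. Citrate synthase, Cs, which feeds the step before cis-aconitate, was at 567 ± 5.93 CPM with LPS plus BHB, 369.9 ± 18.02 CPM with LPS and 139.8 ± 3.36 CPM in control (SD, n = 3 each). It rose by 0.62 with LPS plus BHB against LPS (SE 0.05, adjusted p = 2.05e-10) and by 1.40 with LPS against control (SE 0.04). Nfe2l2, which encodes NRF2, a factor that itaconate is known to activate, was higher by 0.42 (SE 0.05, adjusted p = 8.95e-08). For LPS against control Nfe2l2 was not called (-0.05, adjusted p = 0.191), and with scaling by library totals it was lower, at -0.33. For LPS plus BHB against control it was at 0.36, or 0.04 and not called with scaling by library totals (adjusted p = 0.450). These are RNA levels, and NRF2 activity was not measured. Atf3 was lower with LPS plus BHB than with LPS, at -0.49 (SE 0.06, adjusted p = 4.98e-07). LPS against control gave 4 genes higher and 8 lower, with a median of -0.23. All 4 succinate dehydrogenase subunit genes, the enzyme that itaconate inhibits, were lower with LPS, with Sdha at -0.40 (SE 0.04), Sdhb at -0.63 (SE 0.05), Sdhc at -0.53 (SE 0.05) and Sdhd at -0.56 (SE 0.05). Between LPS plus BHB and LPS Sdhb was at 0.16 (SE 0.06, adjusted p = 0.0477), a call lost with DESeq2, DESeq2 size factors, no filter, scaling by library totals and without any of 4 libraries, and Sdha at -0.13 (SE 0.05, adjusted p = 0.0285). The other 2 subunit genes did not pass. Suclg2 was at -2.14 (SE 0.13) with LPS against control. For LPS plus BHB against control the counts were 5 higher and 8 lower. Sdha, Sdhc and Sdhd were named after their values were seen.

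Of 14 transcription factor genes known from regulation of Nos2, Acod1, Arg2 or Odc1 all were tested. Against LPS alone, 4 were higher with LPS plus BHB (among them Nfkb1, Hif1a and Cebpb) and 7 lower (Rela, Rel, Irf1, Irf8, Cebpd, Myc and Max), with a median of -0.31. Hif1a, a hypoxia-inducible factor subunit, was higher by 1.52 (SE 0.04, adjusted p = 1.15e-17). Irf8 was lower, at -1.04 (SE 0.06), and so was Irf1, at -0.40 (SE 0.04, adjusted p = 6.26e-08). Irf1 was at 806 ± 26.1 CPM with LPS plus BHB, 1064 ± 11.6 CPM with LPS and 63.5 ± 4.21 CPM in control (SD, n = 3 each). The NF-kappa B subunit genes Nfkb1 and Rel moved apart, at 0.29 (SE 0.04) and -0.41 (SE 0.05). Between LPS and control 10 were higher and 4 lower (among them Irf8, Epas1 and Nr1h3), with a median of 1.26, and Nfkb1 at 3.32 (SE 0.05). For LPS plus BHB against control the counts were 8 higher and 4 lower.

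**Figure D4:**
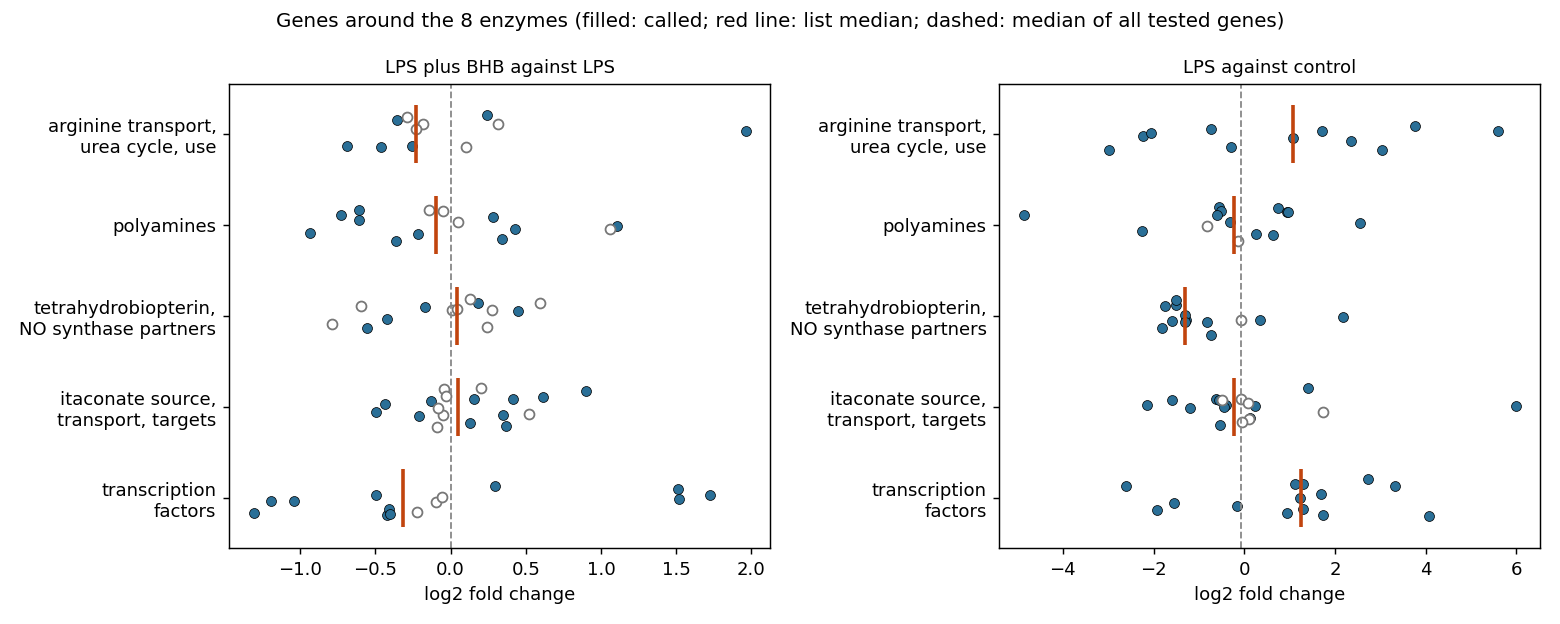
Log2 fold changes (horizontal axes) of the tested genes of 5 lists, for LPS plus BHB against LPS and for LPS against control; filled points were called, open points were not, short vertical lines are list medians and the dashed line is the median of all tested genes. Between LPS and control the median of the tetrahydrobiopterin and synthase partner list lies at -1.30 and that of the arginine list at 1.08.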

How the data were processed

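The authors deposited raw counts per gene symbol for 9 libraries. HISAT2 and the mm10 build are named per the submitters' processing notes. No source used here names the counting tool, the annotation or the strand setting. RNA extraction was with Trizol, per the labels. Genes were kept with edgeR's filterByExpr (minimum count 10), which left 14026 of 46095 symbols and 99.956% of counts. Each comparison was fitted on its own 6 libraries (4 residual degrees of freedom) with edgeR 4.0.16 in R 4.3.3, using TMM factors, the robust quasi-likelihood test and Benjamini-Hochberg adjustment. Fits of 6 libraries were chosen because the control libraries were known to differ among themselves. SE is the log2 fold change over the square root of F, and approximate. RPKM used exon-union lengths from GENCODE M21 (GRCm38). DESeq2 1.42.0, other scalings, no filter, all 9 libraries, a replicate block and left-out libraries were tried as alternatives. An edgeR test of the same kind was run on simulated counts, with TMM factors from the 6 libraries of each comparison. It recovered 58.2% to 67.2% of 1.5-fold changes and 89.4% to 93.9% of 4-fold changes. Libraries of a group differed by more than sampling noise, so all 9 were counted separately. The genes and lists were chosen with earlier results of these data known. Named genes were all 8 enzymes, from each list the 3 with the smallest p in LPS plus BHB against LPS and the 3 in LPS against control, and the 2 nearest genes by pattern. Motifs were searched by exact letters on both strands. The kappa B consensus replaced a looser pattern after the matches of that pattern were seen. Some genes of the lists, and 1 motif, are counted or were searched but are not reported here.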

Additional observations from a re-analysis of the deposited data

How the results depend on the processing

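Of the 8 genes, 5 to 7 were called between LPS plus BHB and LPS, 6 to 8 between LPS and control and 7 to 8 between LPS plus BHB and control under the alternatives tried. Over all genes, leaving out 1 library gave 6138 to 6577, 10947 to 11138 and 10441 to 10890 calls, against 6908, 11316 and 10946. Scaling by library totals turned the sign of Arg2 (-0.053) and Atp13a3 (-0.016) for LPS against control, of Calm2 (-0.0078) for LPS plus BHB against LPS and of Azin1 (-0.32) for LPS plus BHB against control. Leaving out 1 library moved Suclg2 between -0.224 and 0.0735 for LPS plus BHB against LPS, and Azin1 between -0.0396 and 0.0647 for LPS plus BHB against control. With longest-transcript lengths the mean ratio of Nos2 to Ass1 was 3.83 with LPS plus BHB and 42.4 with LPS, and that of Ass1 to Asl was 1.34 with LPS plus BHB and 0.113 in control. Of the 16 genes nearest by pattern, 11 were also nearest without control replicates 2 and 3. The labels give no meaning to shared replicate numbers, and deviations of same-numbered libraries correlated at -0.0166 to 0.0392. Every library correlated best with its own number only between LPS plus BHB and LPS. With the replicate number as a block 6, 7 and 7 of the 8 genes were called, and 6967, 11244 and 10777 genes in all, with Acod1 lost in both comparisons with control. The causes were not tested. Depth limits Nos2 and Acod1 in control replicate 1, at 0 and 24 counts, and Arg1.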
